A study of Mus musculus with 31 samples.

Results

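Whole spleens of mice lacking Gpr34 were compared with whole spleens of wild-type mice across all measured genes. All libraries labelled as naive spleen of either genotype were taken, which gave 19 of the 31 libraries of the series, 9 from Gpr34-/- mice and 10 from wild-type mice. Both groups were of strain C57BL/6, aged 12 weeks and untreated, and total RNA of the organ was sequenced. The sources used here do not say how the Gpr34 allele was made, which bases it lacks or whether each replicate number stands for a separate animal. The p-values therefore measure the spread between these libraries, which may in part be technical. The title of the series names the regulation of Gpr34 expression as its question, and its dendritic cell libraries were not used.

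Gpr34 is a G protein-coupled receptor of the group related to the ADP receptor P2Y12, and lysophosphatidylserine, a phospholipid that has lost 1 fatty acid chain, activates it. The gene is known for its expression in cells of the immune system, among them microglia, macrophages, dendritic cells and mast cells. The spleen filters blood through its red pulp, where macrophages take up aged red cells and recover their iron, and it holds B and T cells in the white pulp. In a mouse it also makes red cells, and its tip lies against the tail of the pancreas, so that dissection can carry pancreatic tissue along.

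Wild-type libraries had between 56834377 and 119384704 counts each, and knockout libraries between 80590338 and 133277070. The markers of the labelled tissue were present in every library: of all counts, genes of the B cell list took 1.497 to 2.06% in wild-type spleens and 1.10 to 2.41% in knockout spleens. Genes of the T cell list took 0.244 to 0.340% and 0.156 to 0.299%. Xist, the RNA that coats the inactive X chromosome of female cells, had 7792 to 26673 counts in the 19 libraries, and the Y-linked genes Ddx3y, Kdm5d and Eif2s3y had no line in any of them. The Y-linked Uty had 40 to 50 counts in 4 libraries, wild-type replicates 7 and 9 and knockout replicates 2 and 4, and none in the others. The spleen labels do not state a sex.

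Among the genes that passed the test, the largest differences were at the targeted place itself. Gpr34 was lower in every knockout spleen than in any wild-type spleen, and Gpr82, the neighbouring receptor gene, was higher in every knockout spleen than in any wild-type spleen. The other differences that passed the test were few and mostly small. In all, 36 of 20371 genes tested passed (0.177%), 20 of them higher (0.0982%) and 16 lower (0.0785%) in the knockout, by edgeR's quasi-likelihood test with a Benjamini-Hochberg adjusted p under 0.05. Only 7 of the 36 differed at least 2-fold (0.0344%), and 3541 genes had an unadjusted p under 0.05.

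Gpr34 lies on the plus strand of chromosome X from 13632089 to 13640858 and Gpr82, an orphan receptor of the same family with no established ligand, 20505 bases further on, from 13661363 to 13667433 (GRCm38). The promoter of Gpr82 is shown because the gene had the largest difference of all those that passed. It is the stretch of 250 bases before the annotated start in RefSeq (GRCm38.p6), chrX:13661113-13661362, plus strand, with TATAA on either strand in capitals, a pattern chosen after the letters were seen.
Gpr82: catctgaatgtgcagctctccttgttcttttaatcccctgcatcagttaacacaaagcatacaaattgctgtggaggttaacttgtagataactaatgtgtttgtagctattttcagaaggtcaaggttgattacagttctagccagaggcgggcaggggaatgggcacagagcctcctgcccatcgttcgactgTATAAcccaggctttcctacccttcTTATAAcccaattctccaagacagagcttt
The pattern begins 55, 30 and 29 bases before the start, the last 2 overlapping on opposite strands, and it occurs in 22.8% of 32851 RefSeq promoter windows of this length. A match describes the letters and is not evidence of a factor bound there.

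Gpr34 had 308 to 986 counts in wild-type libraries, with a median of 492, and 42 to 156 counts in knockout libraries, with a median of 104. Scaled to CPM (counts per 10 to the power of 6 counts, with TMM-scaled library sizes), the wild-type libraries lay between 4.13 and 9.02 CPM around a median of 5.61 CPM. The knockout libraries lay between 0.398 and 1.66 CPM around a median of 1.14 CPM. The groups did not overlap, and the level was 5.68-fold lower in the knockout (log2 fold change -2.51, SE 0.25, edgeR adjusted p = 3.99e-05). No knockout library was at 0, and where in the gene its remaining reads lie was not analysed here.

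Gpr82 went the other way. It had a median of 25.5 counts (6 to 56) in the wild-type libraries and of 249 counts (176 to 495) in the knockout libraries, which is 0.0621 to 0.507 CPM with a median of 0.273 CPM against 2.03 to 4.76 CPM with a median of 2.53 CPM. The ranges were separate, and the level was 10.4-fold higher in the knockout (log2 fold change 3.38, SE 0.33, edgeR adjusted p = 3.99e-05). The ratio of Gpr82 to Gpr34 counts, which needs no scaling between libraries, was 0.0150 to 0.0860 in wild-type and 1.596 to 5.89 in knockout spleens. Gpr82 thus had more counts than Gpr34 in all 9 knockout libraries and fewer in all 10 wild-type libraries. The counts were not corrected for transcript length. Neither difference was lost in any of the 19 fits that left out 1 library.

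**Figure D1:**
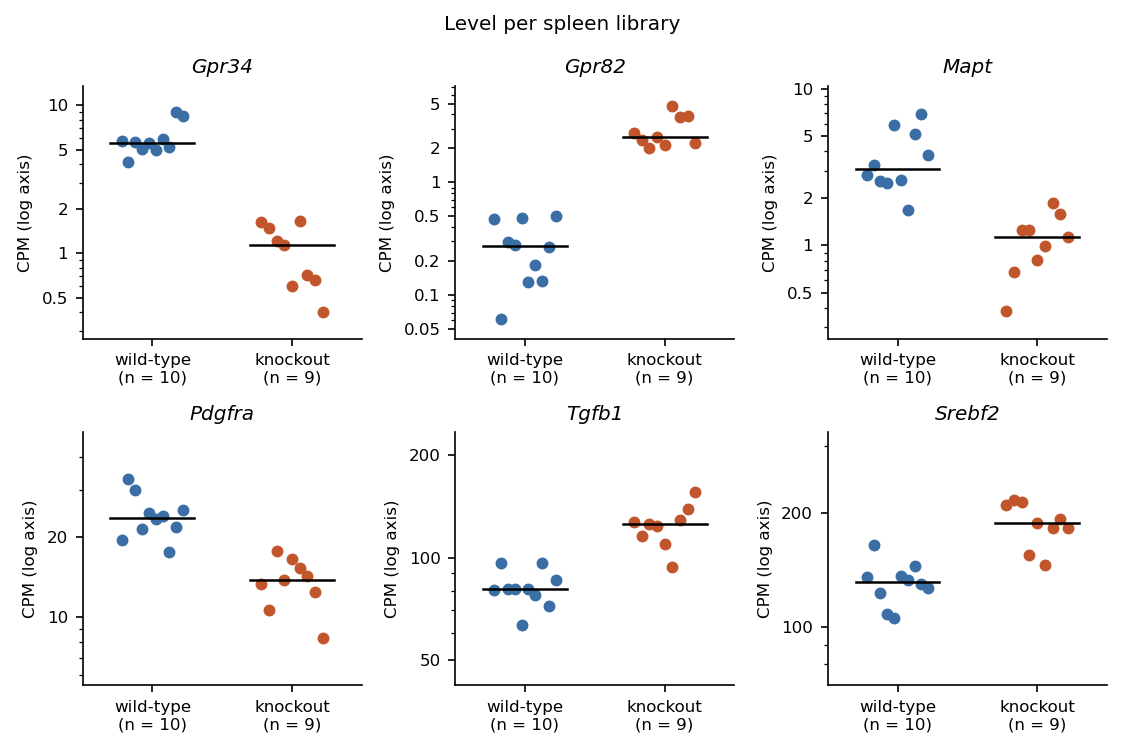
Level of 6 genes in each library, in CPM on a log axis. Points are libraries (10 wild-type, 9 knockout), and the line is the group median. Gpr34 and Gpr82 separate the genotypes, while Mapt, Pdgfra, Tgfb1 and Srebf2 overlap at the edges of the groups.

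Both receptor genes sit within Cask, the gene of a scaffold protein of the MAGUK family, which is annotated between 13517080 and 13851367 on the opposite strand. None of the 6 exon intervals of Gpr34 and none of the 4 of Gpr82 overlaps an exon of Cask in the GENCODE annotation. Cask was at 28.2 to 41.3 CPM (median 32.3) in wild-type and 19.4 to 39.4 CPM (median 24.6) in knockout spleens. Its groups overlapped, and its log2 fold change of -0.35 (SE 0.11) did not pass (edgeR adjusted p = 0.138). The sources used here do not say whether the authors counted by strand, so unspliced Cask reads could not be separated from those of the 2 receptors.

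Away from the pair, no gene of the region passed over all libraries, though listed genes near Gpr34 leaned lower. Of the 21 listed genes tested, 6 had a positive log2 fold change, against 51.9% of all genes tested, and the list median was -0.17. With the dependence of each library on GC content and transcript length removed, that median was -0.04. An edgeR unadjusted p under 0.05 was found for 8 of the 21, Gpr34 and Gpr82 among them, and for 3541 of all 20371 genes. Within 1 Mb of Gpr34 15 genes were tested, and Gpr34 and Gpr82 alone passed. Between 1 and 5 Mb none of 25 passed, between 5 and 20 Mb none of 76, and on the rest of X none of 617. The other chromosomes held 19 of the genes that were higher and 11 of those that were lower, among 18088 tested, and 4 further lower genes had IDs without a position. The medians of the log2 fold change were -0.04 within 1 Mb and 0.02 on the other chromosomes. Without knockout replicate 6, 5 genes within 5 Mb passed, in a fit where 5.1% of all genes tested did. The additional ones were Cask, Mid1ip1 (log2 fold change 0.45 and edgeR adjusted p = 0.0890 over all libraries), which encodes a regulator of lipid synthesis, and Rpl3-ps1, named after its value was seen (0.25, edgeR adjusted p = 0.176).

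Among 29 tested genes of lysophospholipid receptors and enzymes, Gpr34 was the single one to pass, and the median log2 fold change was -0.03 against 0.01 over all genes tested. The next member by p was Abhd16a, the enzyme that makes lysophosphatidylserine, at 0.29 (SE 0.09, edgeR adjusted p = 0.117), with 33.6 to 50.4 CPM in wild-type and 44.9 to 71.2 CPM in knockout spleens. None of the 4 tested genes of the P2Y12-like group other than Gpr34 and Gpr82 passed, and their log2 fold changes lay between -0.27 and 0.04.

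**Figure D2:**
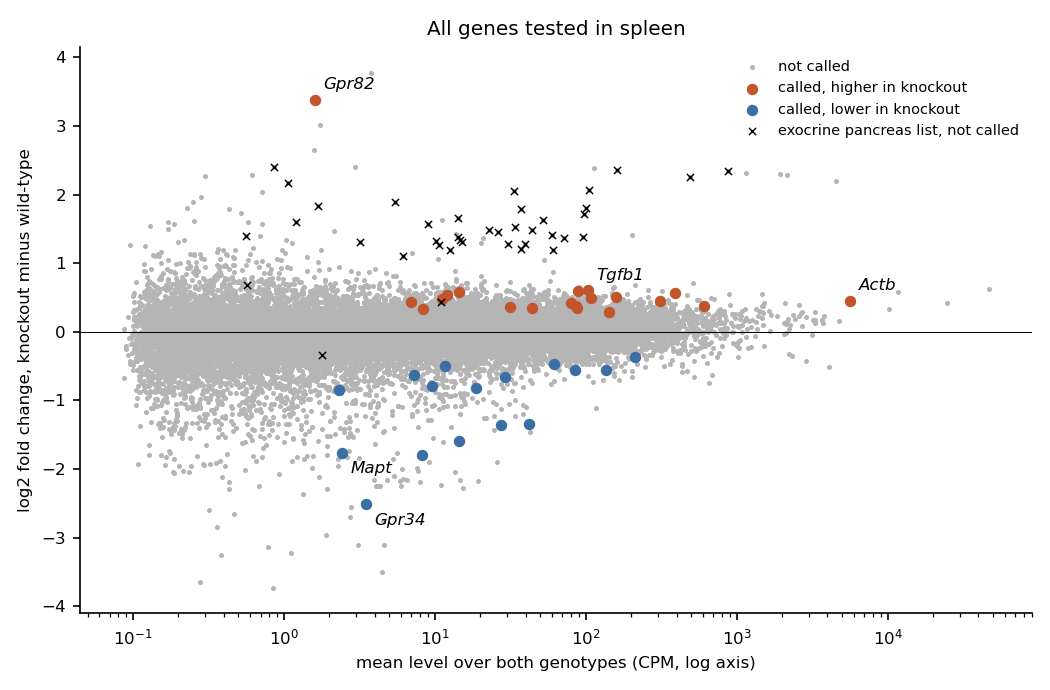
Log2 fold change (knockout minus wild-type) of each of the 20371 genes tested against its mean level in CPM on a log axis. Coloured points are the 36 genes that passed, and crosses are the 39 tested genes of the exocrine pancreas list, of which none passed although most lie above 1.

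Beyond Gpr82, most of the genes that were higher in the knockout were abundant and moved by less than 2-fold. Ftl2-ps, an annotated ferritin light chain pseudogene, separated the groups. It was at 54.8 to 77.1 CPM (median 71.5) in wild-type and 90.5 to 128 CPM (median 105) in knockout spleens, 1.51-fold higher (log2 fold change 0.60, SE 0.07, edgeR adjusted p = 0.000673). Another ferritin light chain pseudogene, Ftl1-ps1, which the rule for named genes leaves out, also passed at 0.57 (edgeR adjusted p = 0.00666). Ftl1 itself, the expressed gene for the light chain of the iron store ferritin, had a like log2 fold change of 0.56 that did not pass (SE 0.17, edgeR adjusted p = 0.117), with 416 to 1098 CPM in wild-type and 655 to 1485 CPM in knockout spleens. The copies are nearly identical, so reads may have been divided among them and none of the 3 values stands for 1 gene alone. Ftl2-ps is annotated within Grik3, on the same strand.

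Tgfb1 encodes the cytokine TGF-beta 1, which restrains lymphocytes and drives matrix production. It ranged from 63.4 to 96.4 CPM (median 80.9) in wild-type and from 93.6 to 155 CPM (median 125) in knockout spleens. All but the lowest knockout library lay above all wild-type libraries. The level was 1.53-fold higher (log2 fold change 0.61, SE 0.09, edgeR adjusted p = 0.00532), and the gene passed in each of the 19 fits that left out 1 library.

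Srebf2 and Idi1, both of the cholesterol pathway, rose. Srebf2 encodes the transcription factor that switches on cholesterol synthesis and uptake when sterols are low. It was at 106 to 165 CPM (median 131) in wild-type and 146 to 217 CPM (median 188) in knockout spleens, 1.43-fold higher (log2 fold change 0.51, SE 0.09, edgeR adjusted p = 0.0192). Idi1, the isomerase that readies the isoprene unit of sterol synthesis, was at 8.67 to 11.9 CPM (median 9.43) and 11.7 to 17.8 CPM (median 14.3), 1.44-fold higher (0.53, SE 0.09, edgeR adjusted p = 0.0215). For both genes the groups overlapped at their edges, and each passed in 18 of the 19 fits that left out 1 library.

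These were the 2 members called among 28 tested genes of cholesterol synthesis, uptake and efflux, with a list median of 0.19, and 23 of the 28 had a positive log2 fold change against 51.9% of all genes tested. Fdps, which makes farnesyl diphosphate, was at 0.75 (SE 0.16, edgeR adjusted p = 0.0556) and did not pass. Its level was 1.59 to 2.12 CPM in wild-type and 1.62 to 5.61 CPM in knockout spleens, with knockout replicate 9 the highest. Without knockout replicate 6, 10 of the 28 passed, all higher, where 2.54% of all genes passed as higher. When the dependence of each library on GC content and transcript length was removed, 4 of the 28 passed, all higher, where 0.223% of all genes did. When both were done together, 8 of the 28 passed, all higher, against 1.22% of all genes. With the pancreatic share as a covariate 1 of the 28 passed, and without composition factors none did, with a list median of 0.08.

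The promoters of the 2 called members are shown because sterol-regulated promoters are known for sterol response elements next to CCAAT boxes. Both are the 250 bases before the RefSeq start (GRCm38.p6, plus strand), chr15:82147019-82147268 for Srebf2 and chr13:8885356-8885605 for Idi1, and capitals mark ATCACNC and CCAAT on either strand, which were chosen after the letters were seen.
Srebf2: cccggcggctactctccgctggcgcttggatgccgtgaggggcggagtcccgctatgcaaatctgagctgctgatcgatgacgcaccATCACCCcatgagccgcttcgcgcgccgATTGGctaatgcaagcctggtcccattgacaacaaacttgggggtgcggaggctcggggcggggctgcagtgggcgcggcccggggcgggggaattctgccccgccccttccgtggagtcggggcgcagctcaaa
Idi1: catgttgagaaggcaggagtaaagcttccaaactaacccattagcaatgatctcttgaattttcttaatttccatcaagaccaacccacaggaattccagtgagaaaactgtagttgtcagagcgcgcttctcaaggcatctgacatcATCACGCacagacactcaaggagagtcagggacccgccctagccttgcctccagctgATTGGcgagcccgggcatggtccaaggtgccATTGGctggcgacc
ATCACNC begins 163 bases before the RefSeq start in Srebf2 and 102 bases before it in Idi1, and ATTGG is CCAAT on the other strand. GENCODE starts Srebf2 at 82147181 and Idi1 at 8885501, so the last part of each window lies within the gene there. The marked letters of Idi1 lie after its GENCODE start, and those of Srebf2 lie before it. Of 32851 promoter windows of this length 7.55% hold ATCACNC, 33.9% CCAAT and 2.59% both. Among the 19 tested genes of the list with a promoter sequence at hand, 4 hold ATCACNC, Srebf2 and Idi1 among them, and 15 hold CCAAT. As the patterns were chosen after the letters of those 2 were seen, these counts are no test of a surplus. The motifs do not overlap each other.

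The remaining named genes that were higher were Actb, Arpc4, Ctbp1, Tmbim6, Slc16a3, Sf3b4, Snx3 and Ehd1. Actb, the beta-actin gene, was at 4316 to 5934 CPM (median 4630) in wild-type and 4889 to 7413 CPM (median 6936) in knockout spleens, 1.37-fold higher with overlapping groups (log2 fold change 0.45, SE 0.09, edgeR adjusted p = 0.0364). Arpc4, a subunit of the Arp2/3 complex that branches actin filaments, rose by the same log2 fold change of 0.45 (edgeR adjusted p = 0.0490), from 231 to 301 CPM to 269 to 495 CPM. Ctbp1, a transcriptional corepressor, separated the groups at 51.2 to 77.5 CPM and 83.6 to 98.3 CPM (log2 fold change 0.42, SE 0.07, edgeR adjusted p = 0.0215). That made Ctbp1 one of 7 called genes that were higher and did not overlap. Of all genes tested 0.0736% had groups that did not overlap, 0.0491% with the knockout higher.

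Tmbim6, which protects cells from stress at the endoplasmic reticulum, rose from 459 to 646 CPM (median 531) to 583 to 738 CPM (median 701), a log2 fold change of 0.37 (SE 0.06, edgeR adjusted p = 0.0192). Slc16a3, the lactate exporter MCT4, rose by 0.58 on the log2 scale from 9.65 to 13.3 CPM to 10.9 to 23.2 CPM (edgeR adjusted p = 0.0490). The other 3 were Sf3b4 of the spliceosome at 0.48, Snx3 of endosomal sorting at 0.37 and Ehd1 of endocytic recycling at 0.29, each with an edgeR adjusted p = 0.0414. Of these 5 genes, Slc16a3 passed in 3 of the 19 fits that left out 1 library, Sf3b4 in 4, Snx3 in 5, Ehd1 in 6 and Tmbim6 in 18. Actb and Arpc4 passed in 5 and 2. Nudt3, Zfp385a and Med19, which fall outside the rule for named genes, also passed, at 0.35, 0.36 and 0.34.

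The largest decrease after Gpr34 in a gene with a name was that of Mapt, which encodes the microtubule-binding protein tau, best known in neurons. It was at 1.67 to 6.96 CPM (median 3.06) in wild-type and 0.381 to 1.86 CPM (median 1.14) in knockout spleens. The lowest wild-type library lay within the knockout range, and the others lay above it. The level was 3.38-fold lower (log2 fold change -1.76, SE 0.29, edgeR adjusted p = 0.0183) and passed in all 19 fits that left out 1 library. Mapt lies on chromosome 11 from 104231390 to 104332090 on the plus strand, where annotated RNAs on the minus strand overlap it.

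Pdgfra, the receptor for platelet-derived growth factor on fibroblasts and reticular cells, was also lower. It was at 17.5 to 33.0 CPM (median 23.6) in wild-type and 8.28 to 17.6 CPM (median 13.7) in knockout spleens. A single wild-type library reached into the knockout range, and the level was 1.77-fold lower (log2 fold change -0.82, SE 0.13, edgeR adjusted p = 0.0162). Of 39 tested genes of stroma and endothelium, Pdgfra alone passed, and the list median was 0.02, and -0.10 without composition factors. Col1a1, which encodes a chain of collagen I, was at 0.66 (SE 0.20, edgeR adjusted p = 0.118), with 40.3 to 99.5 CPM in wild-type and 49.4 to 208 CPM in knockout spleens. In whole organs, fewer cells of a type and less RNA per cell cannot be told apart.

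Masp2 and Abca8b separated the groups, as 2 of the 3 called lower genes that did (0.0245% of all genes tested did so). Masp2, a protease of the lectin pathway of complement, was at 12.5 to 18.4 CPM (median 13.1) and 7.88 to 12.2 CPM (median 9.56), a log2 fold change of -0.50 (SE 0.09, edgeR adjusted p = 0.0275). Its annotated span overlaps Tardbp on the other strand. Abca8b, a lipid transporter of the ABC family, was at 2.07 to 5.11 CPM (median 2.87) and 1.21 to 2.06 CPM (median 1.69), a log2 fold change of -0.85 (SE 0.17, edgeR adjusted p = 0.0414). None of the 27 tested complement genes of the list, which does not hold Masp2, passed.

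Cp encodes ceruloplasmin, the copper enzyme that oxidizes iron for export. It fell from 131 to 205 CPM (median 158) to 84.3 to 147 CPM (median 103), a log2 fold change of -0.56 (SE 0.11, edgeR adjusted p = 0.0414). It was the single member called of 26 tested iron genes, whose median was 0.11, and -0.03 without composition factors. The next members were Pcbp1, an iron chaperone, at 0.32 (edgeR adjusted p = 0.0723) and Fth1, the ferritin heavy chain, at 0.38 (edgeR adjusted p = 0.0756), neither of which passed. The ferritin genes and Cp thus had log2 fold changes of opposite sign.

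Another 5 named genes fell. Rfx3, a transcription factor of cilia genes, had a log2 fold change of -0.79 and Fyco1, an adaptor that carries late endosomes and autophagosomes along microtubules, -0.66. Zfc3h1, which delivers polyadenylated nuclear RNA to the exosome, was at -0.56, Fam214a at -0.47 and Clk4, a kinase of splicing factors, at -0.36. Their edgeR adjusted p lay between 0.0350 and 0.0414, their groups overlapped, and each passed in 6 to 9 of the 19 fits that left out 1 library. On the opposite strand Cp overlaps Hps3 and Fyco1 overlaps Cxcr6, and Arpc4 overlaps Ttll3 on its own strand. The remaining lower genes were 4 IDs without a name in the tables used and 1 predicted gene. Of the IDs, ENSMUSG00000076565 was at -1.59 (edgeR adjusted p = 0.00906) and ENSMUSG00000076712 at -1.79 (edgeR adjusted p = 0.0487). ENSMUSG00000076566 was at -1.36 (edgeR adjusted p = 0.0192) and ENSMUSG00000076567 at -1.34 (edgeR adjusted p = 0.0275). These 4 IDs, Gpr34, Gpr82 and Mapt were the 7 called genes that differed at least 2-fold.

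**Figure D3:**
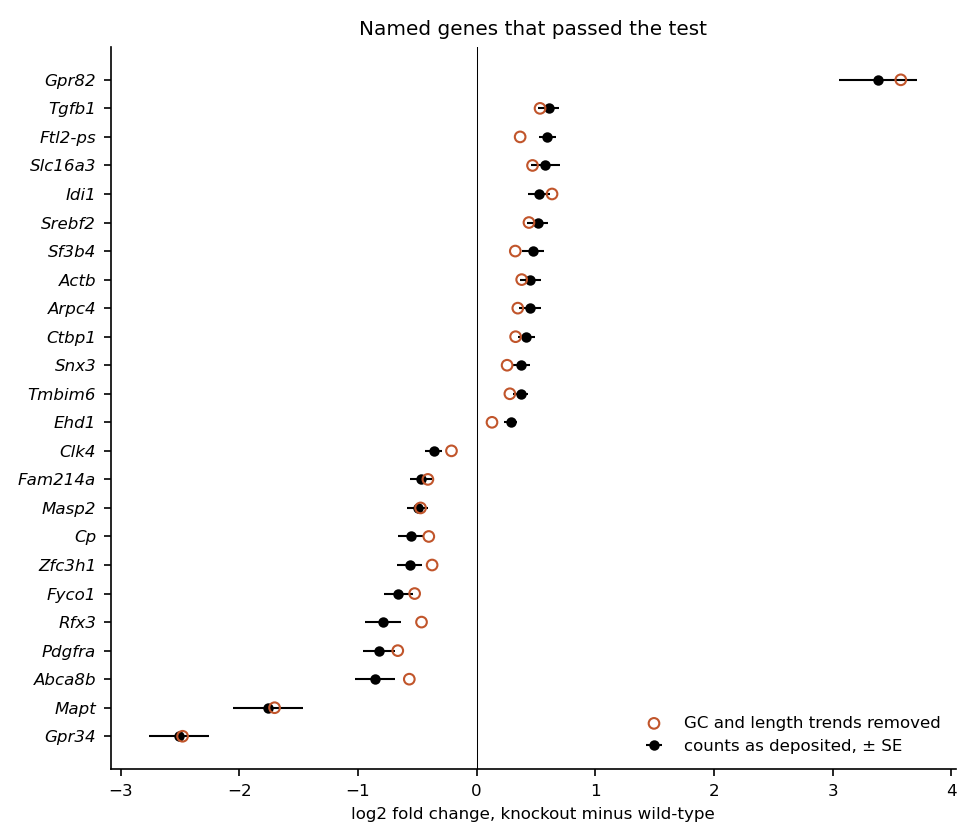
Log2 fold change (knockout minus wild-type) of the 24 genes named by the rule that passed. Filled points with bars are the values from counts as deposited with their SE, and open circles are the values after the dependence of each library on GC content and length was removed. All 24 kept their direction, and 18 still passed.

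Pancreatic reads differed by far between libraries. The summed share of 42 exocrine pancreas genes was 0.00261 to 0.414% of the counts in wild-type spleens (median 0.0250%) and 0.00292 to 1.34% in knockout spleens (median 0.174%), a 513-fold range over the 19 libraries. The highest were knockout replicate 3 at 1.34% (95% Wilson interval 1.338 to 1.343%) and replicate 6 at 1.13%, then knockout 4 at 0.483%, wild-type 4 at 0.414% and wild-type 8 at 0.349%. Above 0.1% lay 4 of the 10 wild-type and 5 of the 9 knockout libraries. The lowest were wild-type replicate 7 at 0.00261%, knockout 2 at 0.00292% and knockout 5 at 0.00306%. The groups overlapped throughout, and the difference in mean log2 share was 1.75, which is 3.37-fold (exact two-sided permutation p = 0.218, 0.261 adjusted over 6 measures of the libraries). Intervals cover counting error only.

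Gene by gene, pancreatic messages were uneven in the same way. Of the 39 list members tested, none passed, 38 had a positive log2 fold change and the median was 1.46, and -0.16 with 2 surrogate variables in the fit. Tmed6, a secretory pathway protein, was at 0.0435 to 0.632 CPM in wild-type and 0.133 to 2.01 CPM in knockout spleens (log2 fold change 1.40, SE 0.52, edgeR adjusted p = 0.186). Cela1, an elastase, was at 7.65 to 181 CPM (median 14.8) and 9.46 to 527 CPM (median 76.2), a log2 fold change of 1.71 (SE 0.80, edgeR adjusted p = 0.280). Serpini2, a protease inhibitor of acinar cells, had no count in at least 1 library of each genotype and reached 1.17 CPM in wild-type and 5.98 CPM in knockout spleens (edgeR adjusted p = 0.279). The amylase gene Amy2a5 had the highest mean of the list in both groups, 289 CPM in wild-type and 1473 CPM in knockout spleens, and was chosen here after its value was seen. With each library's pancreatic share in the fit as a covariate, 11 genes passed, all of them among the 36.

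Haemoglobin took a larger and steadier share. The 10 haemoglobin genes made up 3.29 to 11.9% of the counts in wild-type (median 7.69%) and 4.23 to 23.9% in knockout spleens (median 8.71%). Knockout replicate 4 stood apart at 23.9% (95% Wilson interval 23.926 to 23.941%), ahead of knockout 8 at 13.6% and wild-type 4 at 11.9%, while the lowest was wild-type 2 at 3.29%. The groups overlapped, and the difference in mean log2 share was 0.28 (1.21-fold, exact two-sided permutation p = 0.390, 0.390 adjusted). Without knockout replicate 4 it was 0.10.

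None of the 10 haemoglobin genes passed, and their median log2 fold change was 0.41. Hba-a2 and Hba-a1, the adult alpha globins, were at 17090 to 55217 CPM and 4027 to 14135 CPM in wild-type and at 24033 to 159621 CPM and 6559 to 37289 CPM in knockout spleens (log2 fold changes 0.62 and 0.58, edgeR adjusted p = 0.319 and 0.355). The globin genes are near copies of each other, so reads may be divided between them. Genes of red cell precursors leaned the same way: none of 41 tested erythroid genes passed, all 41 had a positive log2 fold change and the median was 0.49. The median did not keep this size or sign under other settings: it was -0.09 without knockout replicates 4, 6 and 9, 0.11 with GC and length trends removed, and -0.01 when knockout 6 was also left out. The haemoglobin median was 0.07 without knockout 4, 6 and 9. Alad, of haem synthesis, was at 64.2 to 250 CPM in wild-type and 89.2 to 433 CPM in knockout spleens, with knockout replicate 4 the highest. The part of pancreatic and red cell messages in the 36 differences was not tested beyond the fits that carry their shares as covariates.

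**Figure D4:**
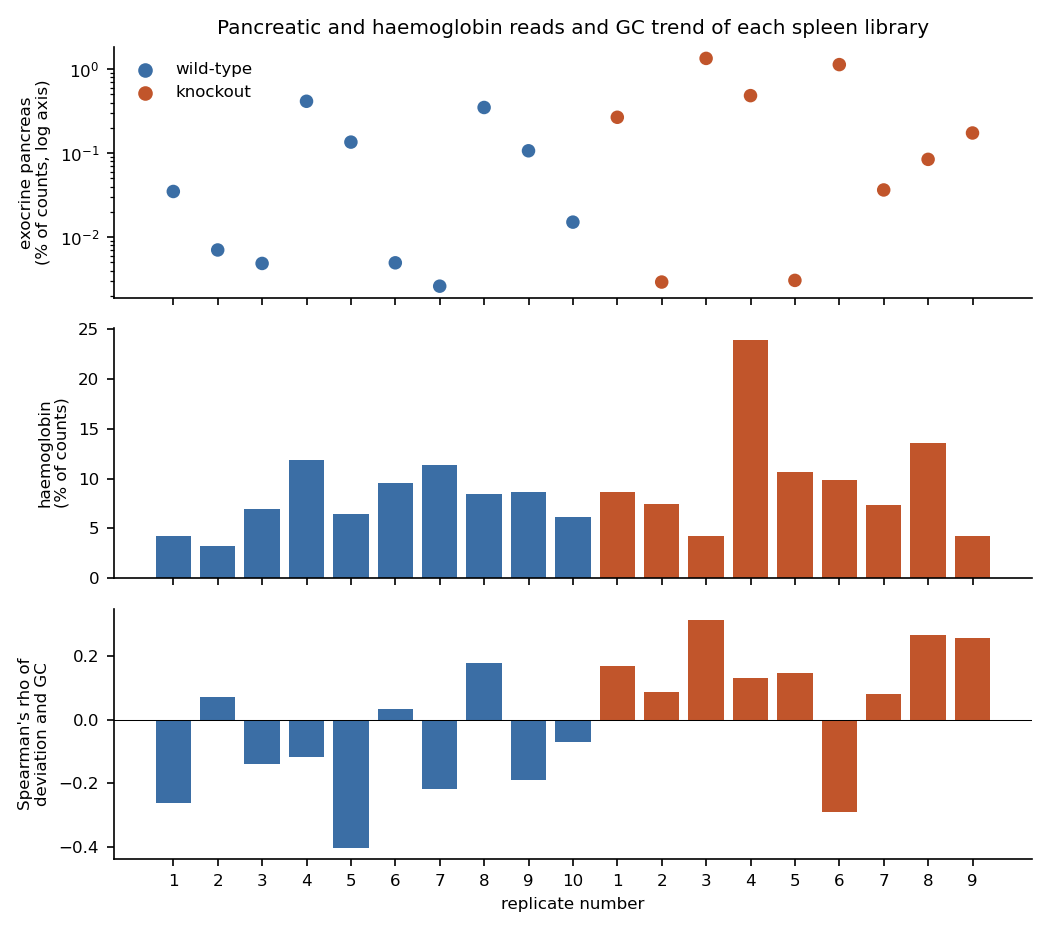
For each of the 19 libraries, from top to bottom, the share of counts from exocrine pancreas genes in percent on a log axis, the share from haemoglobin genes in percent, and Spearman's rho across genes between a library's deviation from the mean log2 CPM and GC content. Pancreatic shares reach 0.414% in wild-type and 1.34% in knockout libraries, knockout 4 is highest in haemoglobin, and knockout 6 is the only knockout library with a rho below 0.

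A trend with base composition also divided the libraries. For each library, the deviation of a gene from its mean log2 CPM over the 19 libraries was ranked against the GC content of the gene's longest transcript. Spearman's rho across 18821 genes, which are not independent of each other, was -0.402 to 0.180 in wild-type and -0.289 to 0.315 in knockout libraries. It was above 0 in 3 of 10 wild-type and 8 of 9 knockout libraries, knockout replicate 6 being the exception. The mean was 0.241 higher in the knockout (exact two-sided permutation p = 0.00965, 0.0289 adjusted over the 6 measures). The genes that were higher had a median GC content of 54.9% and those that were lower 44.3%, against 49.7% over all genes tested, and rho between log2 fold change and GC content was 0.359.

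The TMM factor, which corrects for a few genes taking many counts, moved with genotype too. It was 0.968 to 1.07 in wild-type and 0.793 to 1.02 in knockout libraries (exact two-sided permutation p = 0.000985, 0.00591 adjusted). Without such factors the median log2 fold change of all genes moved from 0.01 to -0.10, and 190 genes passed, 7 higher and 183 lower, against 20 and 16 with them. Changes here are relative to the TMM scale, and the 36 genes kept their direction on both scales.

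The number of genes that passed rested on single libraries. Without knockout replicate 6 it was 1051 (5.1%), 524 higher (2.54%) and 527 lower (2.56%), including all 36. Without knockout replicates 1, 2, 3, 4, 5, 7, 8 and 9 it was 21, 23, 19, 22, 26, 21, 8 and 23. Leaving out wild-type replicates 2 and 4 gave 103 and 55 genes. Leaving out wild-type 1, 3, 5, 6, 7, 8, 9 and 10 gave 23, 22, 15, 30, 18, 26, 23 and 17. With 8 genes the call held in all 19 such fits, 6 of them named by the rule: Gpr34, Gpr82, Ftl2-ps, Tgfb1, Pdgfra and Mapt. The other 2 were Ftl1-ps1 and ENSMUSG00000076565.

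With GC and length trends removed, 77 genes passed (0.409%), 42 higher and 35 lower (0.186%), among 18821 tested. Of the 32 called genes with a known GC content, 22 passed there as well. Those named by the rule that did not were Clk4, Rfx3, Abca8b, Snx3, Ehd1 and Slc16a3. With the trends removed and knockout replicate 6 left out, 404 genes passed (2.12%), 232 higher and 172 lower (0.904%), with median GC contents of 47.3 and 48.4%.

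Of the 42 gene lists 35 held no called member, and 9 of 1022 memberships tested were called in the other 7. Among all genes tested 36 of 20371 passed (0.177%), so most lists would hold none at that share. Gpr34 counts among the 9 both in the list of genes near it and in the lysophospholipid list. Where a list's values leaned one way, they did so without passing. Of 25 heat shock genes 23 had a positive log2 fold change, with a median of 0.25. Fkbp4, a cochaperone of HSP90, was at 0.29 (SE 0.06, edgeR adjusted p = 0.0570) and Hsp90ab1, the constitutive HSP90, at 0.42 (SE 0.10, edgeR adjusted p = 0.0690). Without knockout replicate 6, 6 of the 25 passed, all higher, where 2.54% of all genes passed as higher. With the trends removed 1 of the 25 passed, as higher, where 0.223% of all genes did.

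Growth-related lists leaned the same way. All 36 cell cycle genes had a positive log2 fold change (median 0.31), as had 51 of 53 nuclear-encoded respiratory chain genes (median 0.21) and 61 of 64 ribosomal protein genes (median 0.21), and none passed. Plk1, a mitotic kinase, was at 0.60 (edgeR adjusted p = 0.129) with 7.06 to 13.99 CPM in wild-type and 8.05 to 28.2 CPM in knockout spleens. Uqcrc1, of respiratory complex III, was at 0.31 (edgeR adjusted p = 0.0760), and Rpl8 at 0.39 (edgeR adjusted p = 0.191). Without knockout replicate 6, 7 of the 53 respiratory chain genes and 1 of the 64 ribosomal protein genes passed, all higher. No cell cycle gene did, and 2.54% of all genes passed as higher there. With the trends removed, the medians of the 3 lists were 0.26, 0.13 and 0.11. Without knockout replicates 4, 6 and 9 they were 0.11, 0.14 and 0.14, and without composition factors 0.17, 0.08 and 0.10. Of 18 housekeeping genes, Actb alone passed. Without knockout replicate 6, 5 of the 18 passed, all higher. With the trends removed 3 of the 18 passed, all higher, where 0.223% of all genes passed as higher. Tubb5, a tubulin, was at 0.36 (edgeR adjusted p = 0.0723).

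Genes of antibody-producing cells leaned the other way. Of 24 plasma cell genes 5 had a positive log2 fold change, with a median of -0.21, and all 8 immunoglobulin constant region genes were negative, with a median of -0.50. Prdm1, the transcription factor of plasma cells, was at 4.72 to 10.8 CPM (median 7.5) in wild-type and 3.04 to 6.88 CPM (median 5.05) in knockout spleens (log2 fold change -0.53, SE 0.17, edgeR adjusted p = 0.134). Ighg3, an IgG heavy chain, was at 338 to 1082 CPM and 248 to 475 CPM (-0.58, SE 0.21, edgeR adjusted p = 0.179), and Ighm, the IgM heavy chain, at 1918 to 4991 CPM and 1821 to 3026 CPM (-0.42, SE 0.15, edgeR adjusted p = 0.180). None of these genes passed, and the groups overlapped in each.

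Markers of the other spleen cells gave list medians between -0.13 and 0.17. No gene of the B cell (29 tested, median 0.00), T cell (30, median -0.06), cytotoxic cell (21, median -0.13), neutrophil (27, median 0.06), dendritic cell (29, median -0.06), red pulp macrophage (30, median 0.05), monocyte (21, median 0.04) or megakaryocyte (26, median 0.17) list passed. As 0.177% of all genes tested passed, lists of this size would mostly hold no call. An edgeR unadjusted p under 0.05 was found for 11 of the 30 T cell genes, and for 3541 of all 20371 genes. In each other list it was found for 0 to 4. Without knockout replicate 6, 1 higher and 2 lower red pulp macrophage genes passed, where 5.1% of all genes did. A single gene or none passed there in each other list. Among the members with the smallest p of their lists were Ccl5, a chemokine of cytotoxic cells, at 0.42 (edgeR adjusted p = 0.115), Cr2, a complement receptor of B cells, at -0.46 (edgeR adjusted p = 0.122), Il7r, the interleukin 7 receptor of T cells, at -0.62 (edgeR adjusted p = 0.118) and Cd68, a lysosomal protein of macrophages, at 0.27 (edgeR adjusted p = 0.0723). The neutrophil enzyme gene Padi4 was at 0.86 (edgeR adjusted p = 0.111). Without composition factors the medians of the neutrophil, red pulp macrophage and monocyte lists had the opposite sign, at -0.09, -0.07 and -0.07.

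Of 43 interferon-stimulated genes none passed, and the median was 0.12, and -0.00 without composition factors. Without knockout replicate 6, 4 of the 43 passed, all higher, where 2.54% of all genes passed as higher. Irf7, the regulator that amplifies interferon production, was at 176 to 282 CPM (median 237) in wild-type and 243 to 365 CPM (median 317) in knockout spleens (log2 fold change 0.40, SE 0.10, edgeR adjusted p = 0.0756). Oas1g, an antiviral enzyme, was at 6.55 to 15.0 CPM and 8.52 to 22.2 CPM (0.66, SE 0.17, edgeR adjusted p = 0.0760). None of 19 MHC class I or 13 MHC class II genes passed either, with medians of 0.17 and 0.21. Tapbp, which loads peptide onto MHC class I, was at 0.40 (edgeR adjusted p = 0.0609) and H2-Eb1, an MHC class II chain, at 0.42 (edgeR adjusted p = 0.145). Pdk4, which responds to fasting and glucocorticoids, was at -1.02 (SE 0.25, edgeR adjusted p = 0.0723), with 4.76 to 15.4 CPM in wild-type and 2.59 to 8.38 CPM in knockout spleens, and none of the 16 glucocorticoid-responsive genes of its list passed.

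Xist was at 138 to 244 CPM in wild-type and 73.8 to 193 CPM in knockout spleens (log2 fold change -0.60, SE 0.15, edgeR adjusted p = 0.0760), and at -0.17 with the GC and length trends removed.

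**Figure D5:**
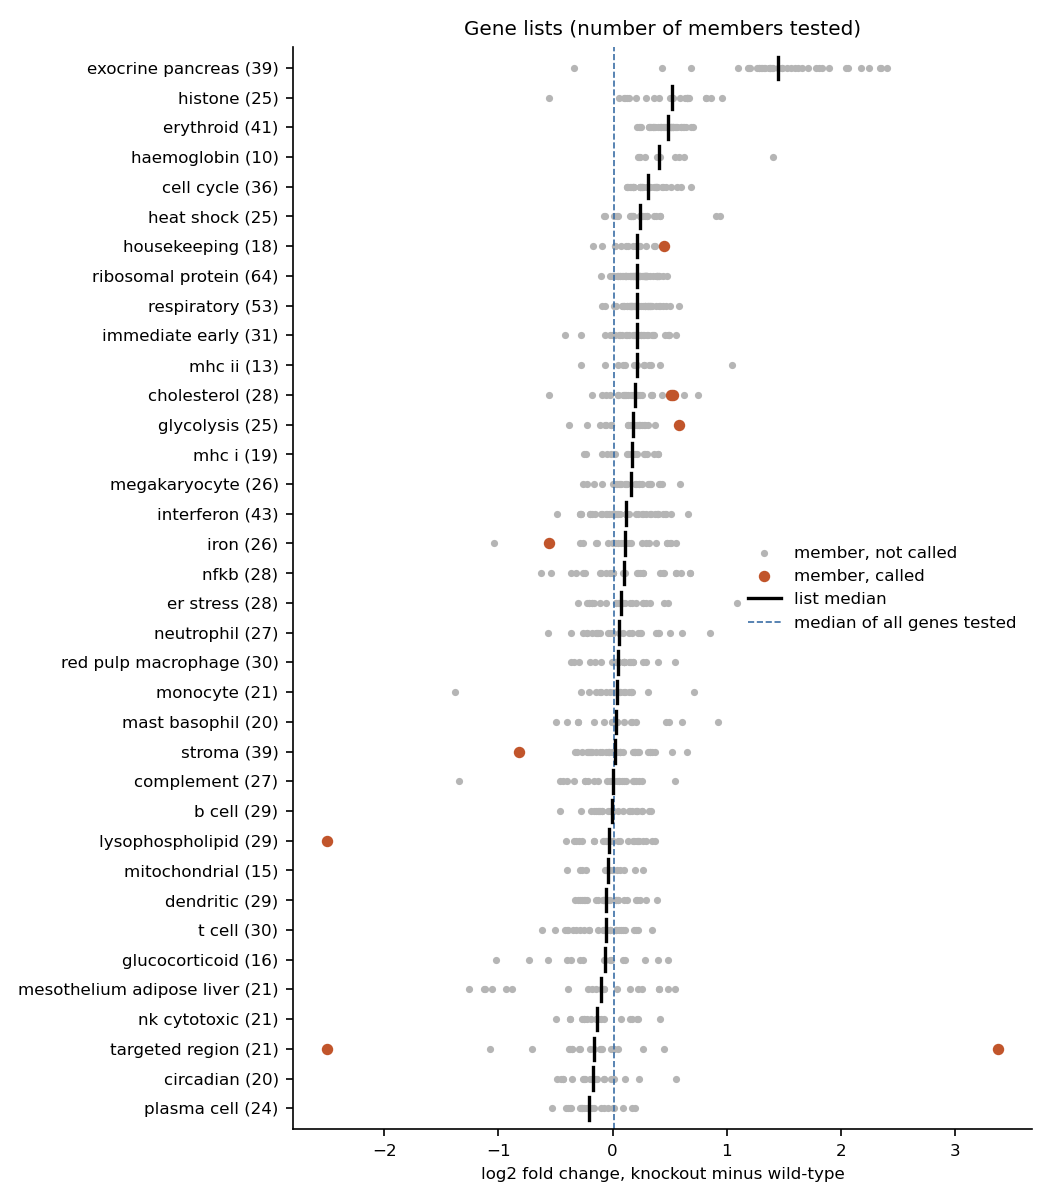
Log2 fold change (knockout minus wild-type) of the tested members of each gene list with at least 10 of them. Grey points are members that did not pass, coloured points those that did, black bars the list medians and the dashed line the median of all genes tested. The exocrine pancreas list lies farthest from the dashed line, at a median of 1.46, with no member called.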

How the data were processed

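Total RNA of whole spleen was sequenced in 19 libraries. For each library the authors deposited raw counts by Ensembl gene ID, which are whole numbers and not normalized. The submitters' processing notes name, without their roles, the tools DESeq, bedtools, SAMtools, Bowtie and TopHat (1.3.3) and the build mm9. The sources used here do not state the annotation, the use of strand or how multi-mapped reads were counted. Of the counts up to 200, 59.0 to 62.1% were even, as when both mates of a pair are counted, so that counts may exceed the molecules behind them. A gene without a line was set to 0. Of 28546 IDs, 25598 were named and placed by ID in GENCODE M21 (GRCm38, not mm9).

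Groups were taken from the labels. The test was edgeR 4.0.16 (R 4.3.3), quasi-likelihood with robust dispersions, edgeR's low-count filter, TMM and Benjamini-Hochberg adjustment over 20371 genes (17 residual df, biological coefficient of variation 0.394), tested on simulated data. Per-library measures were compared by exact permutation of all 92378 splits. Lists (42, with 1104 members, 1057 found) were not tested as sets. The part studied, the lists and the rules were chosen with earlier results of these data known. Named were Gpr34, Gpr82, Cask, called genes within 5 Mb of Gpr34, the 12 largest changes with at least 1 CPM, the 6 smallest p and the 5 most abundant called genes per direction, and up to 4 members of a list by p, of which 1 is not reported here. Clone, predicted and numbered pseudogene names, unnamed IDs and pancreatic and haemoglobin genes were left out of the ranks.

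Alternatives were DESeq2 1.42.0, limma 3.58.1 voom, other factors, no filter, a replicate block, 2 surrogate variables (sva 3.50.0), the pancreatic and haemoglobin shares as covariates or their genes left out, removal of GC and length trends (lowess, span 0.3, limma, prior count 2 for log2 CPM, for the 92.4% of tested genes with both known), and libraries left out. A limma fit with the trends kept, and the removal of trends without knockout replicate 6, were added after the data were seen. All pairs of libraries within a group differed beyond counting error, with a chi-square per gene of at least 75.7.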

Additional observations from a re-analysis of the deposited data

Results flagged for a closer look

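In groups of 4 to 10 libraries, a value was singled out where its gap to the nearest other value was large against the range of the group (Dixon's test at 95%). This was looked for in 148 groups of libraries, and 19 values were singled out, where chance gives about 1 in 20. The groups share the same libraries and are not independent, so the 19 values cannot be tested against that rate.

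Knockout replicate 4 was highest in several red cell measures. Its haemoglobin share was 23.93%, with the next knockout library at 13.6%. Hba-a2 was at 159621 CPM and Hba-a1 at 37289 CPM there, Alad at 433 CPM, and Plk1, the mitotic kinase, at 28.21 CPM. Its TMM factor of 0.7925 was the lowest of the knockout libraries. Wild-type replicate 4 was highest of its group in Alad, at 249.7 CPM, and in Fth1, at 660.4 CPM.

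Knockout replicate 6 had the lowest GC rank correlation of its group, -0.2892, with the next at 0.0814. It was also second in pancreatic share, at 1.13%.

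Single genes stood apart in single libraries: Ftl2-ps was lowest in wild-type replicate 5, at 54.8 CPM, Snx3 was highest in wild-type 6, at 89.68 CPM, Abca8b in wild-type 7, at 5.106 CPM, and Masp2 in wild-type 10, at 18.42 CPM. In knockout spleens Fdps was highest in replicate 9, at 5.608 CPM, Serpini2 in replicate 3, at 5.977 CPM, and ENSMUSG00000076565 in replicate 3, at 11.92 CPM. Jchain, which links IgM and IgA subunits, was lowest in knockout replicate 1, at 384.9 CPM, and Med19 in knockout replicate 2, at 8.049 CPM. ENSMUSG00000076712 was highest in wild-type replicate 5, at 35.67 CPM.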

How the results depend on the processing

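The 24 called genes named by the rule kept their direction under all alternatives that gave them a value. Their calls were kept in 552 and lost in 264 of 816 refits. The count of 36 genes was 873 with DESeq2, 790 with voom, 211 with 2 surrogate variables, 190 without composition factors, 94 with the haemoglobin share and 11 with the pancreatic share as covariate, 297 without knockout replicates 4, 6 and 9, 77 with GC and length trends removed and 404 when knockout replicate 6 was also left out. It was 43 with RLE factors, 25 without the filter, 25 with both shares, 40 without the pancreatic and haemoglobin genes and 41 with limma and the trends kept. Leaving out 1 library gave 8 to 1051 genes. The cause was not tested. Genes called within 5 Mb of Gpr34 numbered 2 to 5 when 1 library was left out, 3 with DESeq2 (Mid1ip1 added) and with voom (Cask added), and 2 under the other alternatives run. The pancreatic and haemoglobin shares stayed above the threshold in all alternatives, with exact permutation p of 0.0907 to 0.677 and 0.206 to 0.729.

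The labels do not say whether replicate numbers pair the libraries, and the data do not settle it. Correlations of same-numbered deviations ran from -0.078 to 0.290, 5 of 9 above 0.1. The medians of the correlations with other numbers ran from -0.067 to 0.045. Only for number 5 did the same-numbered correlation (-0.078) lie below the median with other numbers (0.006). Each knockout library had 10 wild-type libraries to match, and 4 of 9 correlated best with their own number. The block was kept as an alternative. With the number as a replicate block, a fit without wild-type replicate 10, 3 genes passed, Gpr82, Gpr34 and Ftl2-ps. Without that library and without the block 17 genes passed. The blocked difference in mean log2 share was 1.65 for pancreatic genes (exact permutation p = 0.297) and 0.26 for haemoglobin genes (p = 0.352, exact).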
